A study of Rattus norvegicus with 16 samples.

Results

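Small RNA libraries of kidney were compared with libraries of brain, liver, spleen, heart and testis from the same animals. The kidney libraries were chosen by their tissue label, and they were 2 of the 16 libraries of the series. The 5 other tissues gave 10 libraries. One adult male rat of the brown Norway strain BN-Lx and one adult male spontaneously hypertensive rat (SHR) gave all 6 tissues, so each tissue had 1 library per strain, and the 4 further livers of the series entered only as an alternative. Both are inbred strains that received no treatment named in the labels. Because a strain was represented by 1 rat, strain and individual rat cannot be told apart, and p-values measure only the spread between these libraries. Reads were counted per hairpin arm (5p or 3p), and levels are given as reads per 1000000 of the TMM-scaled library (RPM). The kidney libraries held 544130 reads (BN-Lx) and 597983 reads (SHR) on miRNA hairpins; brain, liver, spleen and heart held between 403453 and 1064894, and the testis libraries held 26880 and 29131. Over these 12 libraries 698 arms had at least 1 read, and 457 passed the filter on low counts and were tested.

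A miRNA is cut from a hairpin transcript and pairs with target mRNAs mainly through its seed, bases 2 to 8 from its 5′ end. Kidney is built largely of tubule epithelium, with podocytes, vessels and connective tissue around it. The mir-200 family (mir-200a, mir-200b, mir-429, mir-200c and mir-141) marks epithelial cells and represses the transcription factors Zeb1 and Zeb2, and mir-205 is known for the same targets. The mir-192, mir-194 and mir-215 hairpins are abundant in kidney, gut and liver epithelium. The mir-10 and mir-196 hairpins lie inside the Hox gene clusters, which specify position along the body axis. These are whole-tissue libraries, in which fewer cells of a type and less RNA per cell cannot be told apart.

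The mature sequences below carry the groups on which the comparison turned. They were taken from RefSeq (table for rat build GRCr8), in which 20 of 23 names looked up had an entry, and capitals mark the seed. The 3 mir-196 arms share 1 seed. The mir-192 and mir-215 arms also share a seed, as do the 3 mir-30 arms shown.
miR-141-3p: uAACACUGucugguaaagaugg
miR-200c-3p: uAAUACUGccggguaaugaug
miR-205: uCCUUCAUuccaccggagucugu
miR-203a-3p: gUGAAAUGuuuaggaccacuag
miR-192-5p: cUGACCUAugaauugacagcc
miR-215: aUGACCUAugauuugacagaca
miR-194-5p: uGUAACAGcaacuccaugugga
miR-10a-5p: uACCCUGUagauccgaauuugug
miR-196a-5p: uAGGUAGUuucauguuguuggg
miR-196b-5p: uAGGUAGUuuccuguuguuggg
miR-196c-5p: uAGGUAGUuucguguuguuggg
miR-30a-5p: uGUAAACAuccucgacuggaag
miR-30c-5p: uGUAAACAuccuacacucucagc
miR-30e-5p: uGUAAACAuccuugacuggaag
miR-653-5p: uUGAAACAuucucuacugaac

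The miRNAs given as kidney markers (mir-192, mir-200b, mir-429 and mir-205) were all higher in kidney than the mean of the other tissues, and the tissue label was not contradicted. The arms that were higher in kidney than in every other tissue came from 3 groups: the mir-200 family, mir-205 and the Hox-embedded hairpins. Against the mean of the 5 other tissues, 71 arms (15.5% of the 457 tested) were higher in kidney and 32 (7.00%) were lower by edgeR's quasi-likelihood test with Benjamini-Hochberg adjustment. The median log2 difference over all arms tested was 0.18. Paralogues that share reads count as separate arms here. With numbered paralogues summed, 55 arms were higher and 37 lower of 418 tested. Against each of the 5 tissues taken singly, 10 arms (2.19%) were higher in kidney in every comparison. They were mir-196a-5p, mir-196b-5p, mir-196b-3p, mir-196c-3p, mir-10a-5p, mir-10b-5p, mir-200a-3p, mir-200b-3p, mir-429 and mir-205-5p. The mir-196 arms among them passed the filter on low counts only through the kidney libraries. All 10 also stayed higher than the mean of the others in each of the 22 alternative settings except mir-196b-5p, which missed the threshold under DESeq2. The count of 10 was less stable: it was 6 without the BN-Lx liver, 3 without the BN-Lx testis and 4 without the BN-Lx spleen, the SHR liver, the SHR spleen, the SHR testis or the SHR kidney, and only mir-10b-5p was called higher than each tissue in all 22 settings. The count of lower arms was 21 without the BN-Lx kidney. Other scalings moved the balance of the calls: higher arms made up 68.9% of the called arms here, 56.8% when libraries were scaled by the outlier-corrected mean of the study's methods, 52.4% with RLE size factors and 44.4% with DESeq2, and the median over all arms moved from 0.18 to −0.05, −0.10 and −0.30, respectively.

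**Figure D1:**
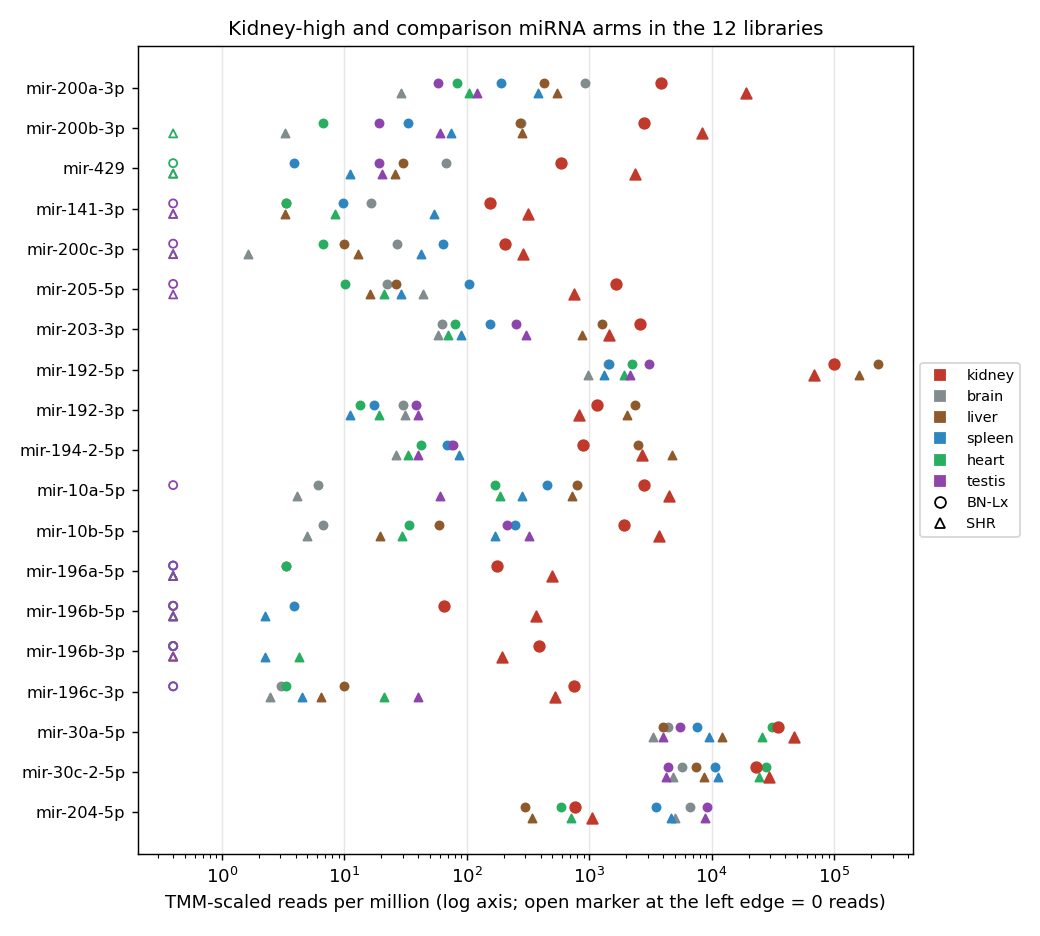
Levels of 19 arms in the 12 libraries, as RPM (x axis, log scale), with circles for BN-Lx, triangles for SHR, colours for tissues, and open markers at the left edge for libraries with 0 reads. Both kidney libraries lie to the right of all others for the mir-200 family, mir-205-5p and the Hox-embedded arms, whereas mir-192-5p is highest in liver and mir-204-5p lies below brain, spleen and testis.

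A stricter rule from the study's methods asks for a level at least 5 times that of every other tissue in each strain, after division by the outlier-corrected mean (the mean over arms of known hairpins without the 3 highest). By this rule 12 arms (1.72% of the 698 with a read) were kidney-specific: mir-196a-5p, mir-196b-5p, mir-196b-3p, mir-196c-5p, mir-196c-3p, mir-10b-3p, mir-200b-3p, mir-429, mir-141-3p, mir-200c-5p, mir-205-5p and mir-653-5p. No arm (0.00%) was at least 5-fold lower than in every other tissue. Of the 12, 9 were deep enough for edgeR, all 9 were higher than the mean of the others, and 7 were higher than each tissue. The rule and the test used the same libraries, so this overlap is no separate support. The rule was met most narrowly by mir-141-3p, with a smaller of both ratios of 5.46, and by mir-429, with 5.65. The arms nearest below it were mir-200a-5p at 4.63 and mir-489-5p at 4.62, followed by mir-10b-5p at 4.16 and mir-200c-3p at 4.03. Each strain alone gave more arms, 25 in BN-Lx and 37 in SHR. Of the 12, 3 rested on few reads and were seen only in kidney: BN-Lx and SHR kidney gave 1 and 9 reads of mir-196c-5p, 7 and 1 of mir-200c-5p, and 7 and 4 of mir-653-5p. At these depths kidney mir-653-5p was at least 9.11-fold higher than brain, against a floor of 3 reads over both brain libraries, but the floor in testis lay above the kidney level.

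The mir-653 hairpin neighbours mir-489 on chromosome 4 of build RGSC3.4, at positions 28517611 to 28517723 and 28518260 to 28518365 on the minus strand, with 536 bases between them. In the GRCr8 annotation both lie inside Calcr, the calcitonin receptor gene. The mir-489-3p arm had 20.9 and 44.7 RPM in the BN-Lx and SHR kidney, 20.03 and 9.87 in the BN-Lx and SHR brain, and 0 reads in all libraries of liver, spleen, heart and testis. It was higher in kidney than the mean of the others (fitted log2 difference 5.95 ± 1.29 SE, adjusted p = 0.0127; at least 2.13 with tissues at 0 set to 3 reads) but did not pass against brain (1.11, adjusted p = 0.408). Without the SHR kidney the call against the mean was lost at 4.86. The arm passed the filter on low counts only with the kidney libraries counted, so a call as higher was partly fixed in advance. It falls outside the rule for named arms and was singled out after its values were seen.

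Of the mir-200 family, 6 of 7 tested arms were higher in kidney than the mean of the other tissues, and the seventh, mir-141-5p, did not pass (3.46, adjusted p = 0.0765). Among the called arms, mir-200b-5p rested on the SHR kidney and lost its call under the other scalings. The median log2 difference of the 7 was 5.72, or 4.51 with tissues at 0 set to 3 reads, against 0.18 over all arms tested. The family lies in 2 clusters in RGSC3.4. One holds mir-429, mir-200a and mir-200b at chr5:172897147-172899092, with 975 and 694 bases between neighbours, and the other holds mir-141 and mir-200c at chr4:160840904-160841412, with 346 bases between them.

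In the chromosome 5 cluster, mir-200a-3p stood at 3875 RPM in the BN-Lx kidney and 18912 in the SHR kidney, and the other 10 libraries ran from 28.8 through a median of 156 to 929 in the BN-Lx brain. Both kidneys therefore lay above every other library. The difference from the mean was 5.56 ± 0.73 SE (adjusted p = 0.000124). For mir-200b-3p the kidneys held 2821 and 8321, and the others ran from 0 through 46.8 to 283 in the SHR liver (6.92 ± 0.85, adjusted p = 0.000102). The arm called mir-429 lies on the 5′ side of the hairpin used by the study. It stood at 585 and 2376 in the kidneys and at 0 through 15.3 to 68.0 in the others, the highest again the BN-Lx brain. Its fitted difference was 7.58 ± 0.97 (adjusted p = 0.000157), heart had 0 reads, and kidney was at least 400-fold higher than heart.

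The chromosome 4 cluster was read less often. Kidney mir-141-3p stood at 154 and 315 RPM and mir-200c-3p at 205.2 and 286. The other libraries ran up to 53.7 for mir-141-3p, in the SHR spleen, and up to 64.5 for mir-200c-3p, in the BN-Lx spleen. Both arms were higher than the mean (5.72 ± 0.97, adjusted p = 0.00131, and 5.64 ± 0.81, adjusted p = 0.000382; at least 4.31 and 3.93 with testis, at 0, set to 3 reads). Spleen was the tissue that kept each of them from being higher than all 5, with differences of 2.93 (adjusted p = 0.0963) and 2.36 (adjusted p = 0.0943).

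One brain library stood apart for this family. The summed family level was 1353 RPM in the BN-Lx brain and 33.7 in the SHR brain, and mir-200a-3p had 1531 and 35 reads there. The Hox-embedded arms summed to 15.8 and 12.3 in the same libraries. The part of this library in the results was not tested. Without both the BN-Lx brain and the BN-Lx kidney (an alternative chosen after seeing the data) 13 arms were higher in kidney than each tissue, 9 of them among the 10 above.

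The epithelial arms outside the mir-200 family were divided. The mir-205-5p arm, from a single hairpin at chr13:109352371-109352478 (RGSC3.4), stood at 1660 and 749 RPM in the BN-Lx and SHR kidney and at 0 through 21.8 to 104 in the others. It was higher than every tissue (6.67 ± 0.56 against the mean, adjusted p = 6.22e-06; at least 5.29 with testis, at 0, set to 3 reads), and only leaving out the SHR spleen cost it the call in 1 of the 5 tissues. The keratinocyte miRNA mir-203-3p stood at 2593 and 1437 in kidney, above all others, which ran from 58.4 through 122 to 1276 in the BN-Lx liver. It was higher than the mean (3.49 ± 0.32, adjusted p = 6.23e-06) but did not pass against liver (0.89, adjusted p = 0.245). The minor arm mir-203-5p, with 45.6 and 20.8 in kidney, also passed against the mean (2.81, adjusted p = 0.0174), a call lost without either kidney library. Of the 9 tested arms of the other epithelial or secretory hairpins, mir-203 gave the only 2 that were called, where 15.5% of all tested arms were higher. The remaining 7 did not pass: mir-31-5p had a difference of 0.84 from the mean and was lower than liver (−2.90, adjusted p = 0.00205), and mir-187-3p and mir-375-3p had 1.01 and 1.65 (adjusted p = 0.184 and 0.217). The hypoxia-induced mir-210-3p had 224 and 430 in kidney against a median of 102 in the others. The BN-Lx liver stood at 568, the SHR heart at 451 and the SHR liver at 390. The arm did not pass (1.43), except without the SHR heart, at 1.92.

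The cluster of mir-182, mir-96 and mir-183, known from sensory and secretory epithelia, was also high in kidney. All 3 tested arms were higher than the mean, and none was higher than each tissue. The mir-182 arm, read from a shortened hairpin, stood at 823 and 1287 RPM in kidney, above the other libraries, which ran from 19.3 through 50.1 to 471 in the SHR liver (3.56 ± 0.65, adjusted p = 0.00183). For mir-183-5p the kidneys held 133 and 302, and the BN-Lx brain (189), the BN-Lx liver (213) and the SHR liver (143) lay between them (3.60 ± 0.82, adjusted p = 0.00737). That call was lost without the SHR kidney, at 2.02. The mir-183-3p arm had 22 and 6 kidney reads and lost its call (3.92 ± 1.14, adjusted p = 0.0339) without any 1 of 7 libraries, at 3.67 to 4.41. This arm, too, passed the filter on low counts only with kidney counted. The summed cluster level in the BN-Lx brain was 665, against 32.9 in the SHR brain.

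The highest single miRNA of kidney was mir-192-5p, and liver held more of it. It made up 9.72% of the reads of the BN-Lx kidney (95% exact binomial interval 9.64 to 9.80) and 7.11% of those of the SHR kidney (7.05 to 7.18), the largest share in each, and the intervals cover counting error only. In RPM mir-192-5p stood at 100494 and 67904 in kidney, at 226480 and 160681 in liver and between 985 and 3051 in the 8 other libraries. Kidney was higher than the mean of the others by 4.23 ± 0.14 on the log2 scale (adjusted p = 4.25e-10), higher than brain, spleen, heart and testis by 6.13, 5.89, 5.31 and 5.01, and lower than liver by −1.21 (adjusted p = 0.00323).

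The hairpins of this group lie in 2 clusters, mir-194-2 and mir-192 on chromosome 1 (209040071 to 209040365, 100 bases between them) and mir-194-1 and mir-215 on chromosome 13 (101312447 to 101312784, 158 bases between them), the latter inside Iars2 in GRCr8. Positions are those of RGSC3.4. All 5 tested arms were higher in kidney than the mean, with a median of 3.79, and none was called higher than liver at the adjusted threshold. The passenger arm mir-192-3p stood at 1163 and 832 RPM in kidney and at 2379 in the BN-Lx liver (4.09 ± 0.33 against the mean, adjusted p = 2.65e-06; −1.15 against liver, adjusted p = 0.119). The mir-194-2-5p arm stood at 896 and 2703 in kidney, against a median of 71.7 in the others and 4763 in the SHR liver (3.79 ± 0.45, adjusted p = 7.75e-05). The mir-194-1-5p arm, which shares reads with it, stood at 176 and 1413 (3.55 ± 0.63, adjusted p = 0.00141), and its call was lost without the SHR kidney, at 1.23. The mir-215-5p arm was rare, with 31 and 14 reads in the BN-Lx and SHR kidney and 3 and 4 in the BN-Lx and SHR liver. It passed narrowly against the mean (2.26 ± 0.72, adjusted p = 0.0391). The call was lost in 14 of the 22 alternative settings, among them leaving out any 1 of 9 libraries.

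The Hox-embedded hairpins had the largest median difference of the 18 lists. All 8 tested arms were higher in kidney than the mean of the others, and 6 were higher than each tissue, and the median difference was 6.68, or 5.71 with tissues at 0 set to 3 reads. Their neighbours in GRCr8 place mir-196c and mir-10a among the Hoxb genes (mir-10a between Hoxb5 and Hoxb4), mir-196a between Hoxc10 and Hoxc9, mir-196b between Hoxa9 and Hoxa10, and mir-10b inside Hoxd4. The summed level was 6244 and 10157 RPM in kidney, at most 890 in another library, and 12.3 to 15.8 in brain. The tested mir-196 arms and mir-10b-3p had few reads outside kidney and passed the filter on low counts only through the kidney libraries. For them a call as higher was close to fixed in advance. The list's median and its rank among the 18 lists rest partly on these arms and are no separate result.

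The mir-10 arms were the abundant members. Kidney mir-10a-5p stood at 2800 and 4481 RPM, and the others ran from 0 through 180 to 794 in the BN-Lx liver (5.23 ± 0.42, adjusted p = 2.65e-06). The nearest tissue was liver, at a log2 distance of 2.25 (adjusted p = 0.0319). Kidney mir-10b-5p stood at 1921 and 3716, and the others at 4.94 through 46.7 to 322 in the SHR testis (5.75 ± 0.39, adjusted p = 7.51e-07). The 2 arms ordered the other tissues differently: spleen and testis were nearest to kidney for mir-10b-5p (3.78 and 3.41), whereas liver, at 6.19, was among the farther ones. Their passenger arms, mir-10a-3p (74.1 and 273) and mir-10b-3p (62.7 and 92.6), were also higher than the mean (5.36 and 6.74; at least 4.00 and 3.85 with tissues at 0 set to 3 reads; adjusted p = 0.000174 and 0.000569). The mir-10b-3p call was lost under DESeq2, at 5.67.

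The mir-196 arms were close to absent outside kidney. For mir-196a-5p, 93 reads were counted in BN-Lx kidney, 311 in SHR kidney and 2 in the 10 other libraries together, 3 tissues having none. Its fitted difference was 9.25 ± 0.80 (adjusted p = 3.80e-05), at least 6.28 with tissues at 0 set to 3 reads; kidney was at least 334-fold higher than brain, 112-fold higher than spleen and 11.9-fold higher than testis, the smaller bound in testis following from its depth. The mir-196b-3p arm stood at 389 and 193 RPM in kidney, with 3 reads elsewhere (9.07 ± 0.79, at least 5.97, adjusted p = 3.80e-05), and mir-196b-5p had 34 and 229 in kidney and 3 elsewhere (8.85 ± 0.86, at least 5.66, adjusted p = 0.000124). The mir-196c-3p arm stood at 754 and 521 RPM in kidney and at up to 40.3, in the SHR testis, elsewhere (6.62 ± 0.55, adjusted p = 3.11e-06). The share of the mir-196b arms differed between the kidneys. On the 5p arm lay 14.2% of the mir-196b reads in the BN-Lx kidney (95% exact interval 10.1 to 19.3). In the SHR kidney the share was 65.4% (60.2 to 70.4). These intervals cover counting error only and do not measure the spread between rats.

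The mir-30 family, whose members share a seed and are known from podocytes and tubules, was abundant in kidney and also in heart. Its summed level was 120709 and 158341 RPM in kidney, 132591 to 147396 in heart and 24313 to 70536 in the other tissues. Of 10 tested arms 5 were higher in kidney than the mean and none was lower, and the median difference was 1.52. The 5 and the median include mir-30c-1-5p and mir-30c-2-5p as separate arms. The mir-30a-5p arm stood at 35012 and 47088, above all others, the nearest being the BN-Lx heart at 30885 (2.32 ± 0.29, adjusted p = 0.000104; 0.51 against heart, adjusted p = 0.567). The mir-30c-1-5p and mir-30c-2-5p arms share their reads, which the authors divided evenly, and count as 1 measurement: 22867 in the BN-Lx kidney and 29630 in the SHR kidney (1.58 ± 0.21, adjusted p = 0.000124; 0.01 against heart). The mir-30e-5p and mir-30a-3p arms also passed (1.46 and 2.69, adjusted p = 0.0171 and 0.0205). The mir-30e-5p call was lost without the SHR kidney, at 1.28, and without both testis libraries, at 1.24, and the mir-30a-3p call without either kidney, either spleen or the BN-Lx testis, at 2.53 to 2.76. The mir-30b-5p and mir-30d-5p arms had 0.62 and 0.76 (adjusted p = 0.0727 and 0.0556), and mir-30d-5p passed without either spleen library.

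The mir-204-5p arm, from a hairpin inside Trpm3 in GRCr8 and known from renal tubule and retinal epithelium, was not high in kidney among these tissues. It stood at 762 and 1054 RPM in kidney, at 299 through 4105 to 9134 in the others, and was lower than the mean (−1.25 ± 0.34, adjusted p = 0.0181). Kidney was higher than liver (1.503, adjusted p = 0.0237) and lower than brain, spleen and testis (−2.71, −2.18 and −3.32; adjusted p = 0.00018, 0.00317 and 0.000137). The call against the mean was lost without the BN-Lx kidney, at −1.05, and without both testis libraries, at −0.72. Its relative mir-211-5p was rare, with 5 and 6 reads in kidney (−2.24 ± 0.69, adjusted p = 0.0363), and lost its call when either kidney, the BN-Lx brain, the BN-Lx spleen, the SHR liver, the SHR heart or the SHR testis was left out, at −2.68 to −1.79.

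**Figure D2:**
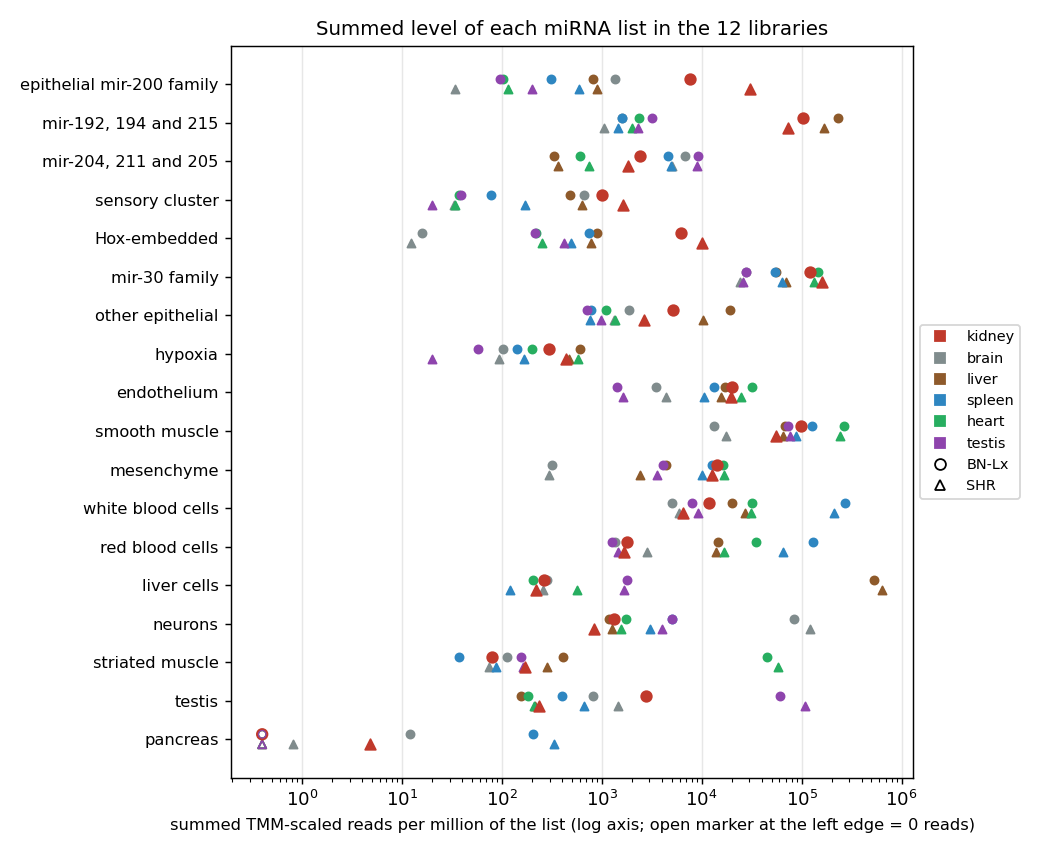
Summed level of each of 18 miRNA lists in the 12 libraries, in RPM (x axis, log scale), with circles for BN-Lx, triangles for SHR, colours for tissues, and open markers at the left edge for 0 reads. Kidney is the rightmost tissue for the mir-200 family, the sensory cluster and the Hox-embedded hairpins, and the testis list is higher in the BN-Lx kidney (2783) than in the SHR kidney (233).

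Markers of the other cell types that whole kidney could hold gave the following levels. Over all 457 tested arms 15.5% were higher than the mean and 7.00% lower, and the small counts below were not tested against these shares. Of the endothelial arms 2 of 6 were higher, both from mir-126 (mir-126-3p 17789 and 17181 RPM, 1.51 ± 0.24, adjusted p = 0.000594), and heart was higher in the list's sum. All 3 tested mesenchymal arms were higher than the mean, with mir-199a-5p at 7150 and 6243 (2.13 ± 0.32, adjusted p = 0.000407), and the summed level of 12713 to 14339 lay below that of heart, 16366 to 16650. The call of mir-214-3p was lost without either kidney, at 1.29 to 1.42. The smooth muscle arms did not pass: mir-145-5p, which made up 8.96% and 5.43% of kidney reads, had a difference of 0.03 ± 0.21 from the mean (adjusted p = 1), and its sign changed with the scaling. Of the white blood cell arms 2 of 7 were lower, mir-223-3p (−1.04, adjusted p = 0.0174) and mir-150-5p (−1.70, adjusted p = 0.00277), and mir-223-3p lost its call without the SHR kidney, at −0.53. The red cell miRNA mir-451-5p was lower (−2.54 ± 0.41, adjusted p = 0.00069). The hepatocyte miRNA mir-122-5p stood at 127 and 113 in kidney and at up to 525381 in liver. Of the 23 neuronal arms, which count each paralogue separately, 4 were lower and none higher. Of the 9 striated muscle arms 3 were lower and mir-499-5p, with 13 and 65 reads, was higher (2.80, adjusted p = 0.0417), a call lost in 16 of 22 settings. The pancreatic list had 0 and 3 reads in kidney.

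The testis list differed between the 2 kidneys. Its 22 arms summed to 2783 RPM in the BN-Lx kidney and 233 in the SHR kidney. In testis the sums were 60807 and 107367, and in the other tissues 156 to 1465. Most of the BN-Lx kidney's sum was mir-34c-5p, with 1151 reads against 124 in the SHR kidney, which brain also expressed (1010 and 1504 reads). The germ cell miRNAs mir-463-5p, mir-742-3p and mir-202-5p gave 49, 42 and 46 reads from BN-Lx kidney against 0, 1 and 1 from SHR kidney, and 5 arms of the list were at 0 in both. The part of these reads in the results above was not tested. None of the 17 tested arms of the list was called. In testis itself, mir-205-5p, mir-141-3p, mir-200c-3p, mir-196a-5p and both mir-196b arms had 0 reads. Other kidney-high arms had reads there. The BN-Lx and SHR testis gave 11 and 16 of mir-10b-5p, 3 and 6 of mir-200a-3p, and 1 and 3 of mir-200b-3p. They gave 1 and 1 of mir-429, 0 and 3 of mir-10a-5p, and 0 and 2 of mir-196c-3p. At the depth of the testis libraries, 0 reads leave the level uncertain.

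Abundance in kidney was concentrated. The 10 highest arms held 49.6% of the reads of the BN-Lx kidney, led by mir-192-5p, mir-145-5p, mir-29a-3p (5.03%) and both mir-24-3p loci (4.76% each, with reads divided between them). The 5 highest in the SHR kidney were mir-192-5p, mir-145-5p, mir-30a-5p (4.93%) and the mir-24-3p loci. Of these, mir-29a-3p had no clear difference from the other tissues (−0.33 ± 0.26, adjusted p = 0.427), and mir-24-1-3p had a small one (0.73 ± 0.18, adjusted p = 0.0138) whose call was lost at a similar value with either kidney left out (0.73 and 0.74) and at lower values with RLE size factors (0.45), the outlier-corrected mean (0.49) and without both testis libraries (0.35).

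The 5 arms with the largest differences below the mean of the others were mir-337-3p (−4.95), mir-341-3p (−3.97), hsa-mir-511-1-3p (−3.92), mir-1-3p (−3.51) and mir-337-5p (−3.22), with 0 to 7 reads in each kidney library. The muscle miRNA mir-1-3p had 1 and 4 reads in kidney and 35529 RPM in the SHR heart. Each of the 5 lost its call when 1 library was left out: hsa-mir-511-1-3p without the SHR kidney, at −3.03; mir-1-3p without the BN-Lx kidney, the SHR spleen or the SHR testis, at −2.94, −2.66 and −2.36; mir-337-3p without the SHR testis, at −3.79; mir-337-5p without the BN-Lx spleen, BN-Lx testis, BN-Lx kidney or SHR spleen, at −3.23 to −2.10; and mir-341-3p without any 1 of 9 libraries, at −6.15 to −2.45. By edgeR no arm (0.00%) was lower than each of the 5 tissues at the adjusted threshold; 2 arms were at an unadjusted p under 0.05 in each, and DESeq2 gave 4. Both kidney libraries lay below all 10 others for 5 of the 457 arms (1.09%): mir-127-5p, mir-128-1-3p, mir-128-2-3p, mir-350-3p and mir-434-3p, named here after their values were seen. The neuronal mir-128-1-3p stood at 210.9 and 119 in kidney and at 331 or more elsewhere (−2.81 ± 0.41, adjusted p = 0.00025). Both kidneys lay above all 10 others for 28 tested arms (6.13%).

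Liver, the other tissue rich in mir-192, was compared with kidney separately. Kidney was higher for 49 arms (10.7%) and lower for 34 (7.44%). The counts were 118 (25.8%) and 157 (34.4%) against brain, 52 (11.4%) and 60 (13.1%) against spleen, 38 (8.32%) and 36 (7.88%) against heart, and 75 (16.4%) and 54 (11.8%) against testis. The 10 arms higher than each tissue lay between 2.25 (mir-10a-5p) and 10.27 (mir-196b-3p, with liver at 0 reads, at least 57.4-fold). The count of 49 depended on the libraries: it was 18 and 20 without the BN-Lx or SHR liver, 25 and 28 without the BN-Lx or SHR spleen, 76 with the 4 further livers, and 106 when scaled by total reads.

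The direction of the kidney differences was shared by both strains. Taken within each strain, kidney was above the mean of the other tissues for 70 of the 71 higher arms in BN-Lx and for all 71 in SHR, and below it for all 32 lower arms in both. Both strains entered the test, so this describes the calls and is no separate support. For 48 of the 71 arms the within-strain differences lay within 1 log2 unit of each other. The mir-192-5p differences were 4.32 and 4.13 in BN-Lx and SHR, those of mir-203-3p 3.75 and 3.17, and those of mir-10a-5p 5.08 and 5.42. For mir-200a-3p they were 4.18 and 6.95, for mir-200b-3p 5.62 and 8.52, and for mir-429 5.40 and 8.79.

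**Figure D3:**
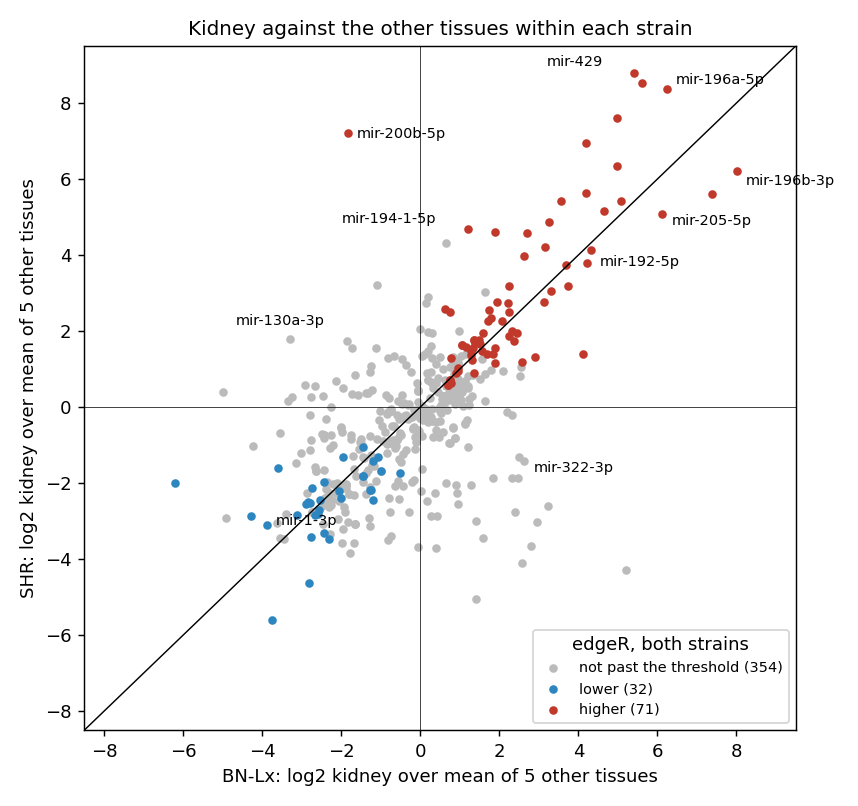
Log2 ratio of kidney to the mean of the 5 other tissues for the 457 tested arms, in BN-Lx (x axis) and SHR (y axis), with 0.5 reads added to each count; red marks the 71 arms called higher, blue the 32 called lower, and the line equal values. Nearly all red points lie above 0 on both axes, and mir-200b-5p is the exception, at −1.84 in BN-Lx and 7.22 in SHR.

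The exception was mir-200b-5p, with a single read (1) from BN-Lx kidney and 326 from SHR kidney. Its major arm had 1485 and 5211, so the minor arm made up 0.0673% of the hairpin's reads in BN-Lx (95% exact interval 0.0017 to 0.374) and 5.89% in SHR (5.28 to 6.54). The BN-Lx brain held 53 reads of mir-200b-5p. Its call as higher in kidney (6.86 ± 2.09, adjusted p = 0.0391) rested on the SHR kidney: without it the difference was −1.16. It was also lost without either spleen or testis library, the SHR brain or the SHR liver, at 5.28 to 7.45. Scaling by RLE, by the outlier-corrected mean or by total reads lost the call as well. So did DESeq2, summed paralogues and leaving out both testis libraries, the differences in these settings being 5.68 to 6.99.

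Between the 2 kidneys themselves, fewer arms lay within 2-fold than between the strains in each of the other tissues. Of 324 arms with at least 10 reads in either kidney, 68.2% lay within 2-fold, against 76.3% to 82.4% in the other tissues, and 45 arms (13.9%) differed by more than 4-fold, against 5.05% to 7.98%. Spearman's rho between strains over these arms was 0.872 in kidney and 0.895 to 0.949 elsewhere. With at least 100 reads required, 74.1% of kidney arms lay within 2-fold, against 82.5% to 89.3%. The order by rho depended on the minimum: rho was 0.891 in kidney and 0.877 in testis at 100 reads, and 0.881 and 0.854 at 1 read, with the other 4 tissues above kidney at each. The arms of a library share its depth, and no test was made. With 1 kidney per strain, a difference between these libraries cannot be assigned to strain, rat or library.

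**Figure D4:**
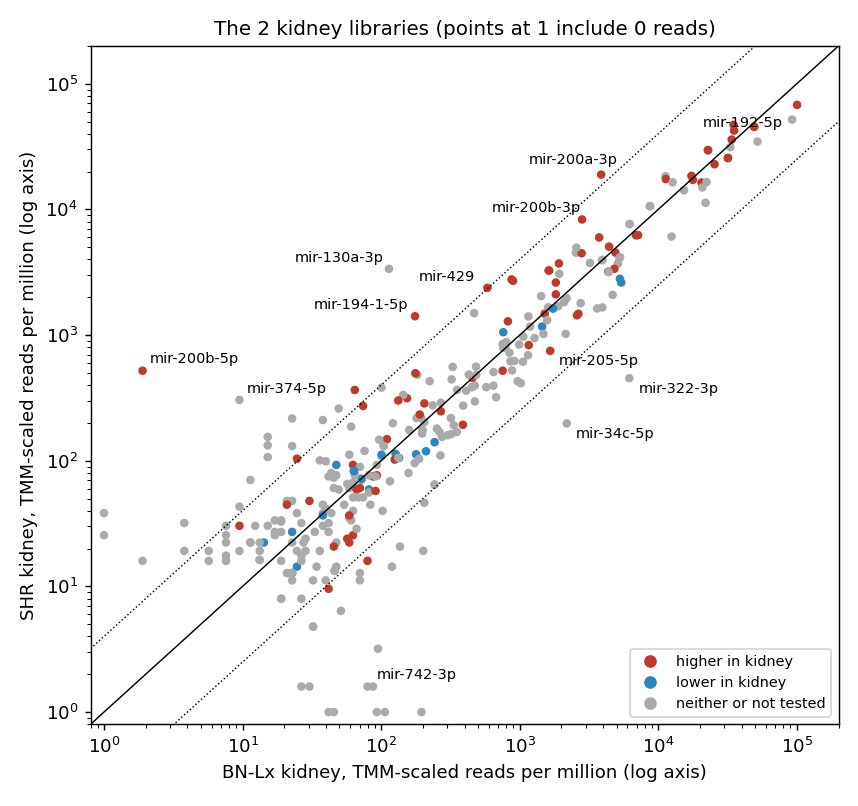
Level of 324 arms in the BN-Lx kidney (x axis) and the SHR kidney (y axis), in RPM on log axes; the solid line marks equality, dotted lines 4-fold differences, and points at 1 include arms with 0 reads in a library, and colours mark arms called higher (red), lower (blue) or neither (grey) against the other tissues. The mir-200 arms and mir-194-1-5p lie on the SHR side and mir-322-3p, mir-34c-5p and mir-742-3p on the BN-Lx side.

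Some of the 71 kidney-high arms were among the 45 (13.9% of 324) over 4-fold apart between the kidneys, and most were not. SHR over BN-Lx, mir-200a-3p was 4.88-fold (counting interval 4.66 to 5.12), mir-429 4.06-fold (3.59 to 4.61) and mir-194-1-5p 8.09-fold (6.52 to 10.1), and mir-196b-5p 5.66-fold (3.94 to 8.37). The mir-499-5p arm, with 13 and 65 reads, was 4.20-fold (2.29 to 8.31). On the BN-Lx side, mir-183-3p was 0.229 (0.0760 to 0.583) and mir-874-3p, named after its values were seen, 0.200 (0.0895 to 0.405). The mir-205-5p arm differed less, at 0.451. The arms of the neighbours mir-192 and mir-194-2 went apart: mir-192-5p was 0.676 and mir-194-2-5p 3.02 in kidney. In liver the values were 0.709 and 1.91. The mir-194-2-5p and mir-194-1-5p arms share reads that cannot be placed at a single locus, so their ratios are not those of a single hairpin. In the other cluster of the mir-200 family, both arms were higher in the SHR kidney, mir-141-3p at 315 against 154 and mir-200c-3p at 286 against 205.2. Among arms not called against the other tissues, mir-130a-3p was 29.5-fold higher in the SHR kidney (22.9 to 38.9) and mir-322-3p 0.0734 (0.0648 to 0.0829).

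The position at which reads began sets the seed, and at the most frequent start kidney and the other tissues held similar shares for most arms. At the most frequent start of mir-192-5p lay 91.8% and 92.3% of reads in the BN-Lx and SHR kidney and 92.3% in the other tissues; for mir-205-5p these were 98.3%, 99.1% and 98.4%, for mir-196a-5p 98.9% and 99.7% in kidney, and for mir-30a-5p 97.5%, 97.9% and 97.2%. For mir-200a-3p they were 95.2%, 96.6% and 83.7%. The mir-10 arms were the most mixed. For mir-10a-5p 65.5% and 66.7% of kidney reads began at the main start and 33.7% and 32.4% began 1 base later, against 71.5% and 27.8% in the other tissues. For mir-10b-5p the main start held 76.8% and 81.7% of kidney reads and the next base 22.9% and 18.2%, against 86.1% and 13.9% elsewhere. Restricting to reads of 20 to 24 bases moved no share at the main start of the 20 arms examined by 10 percentage points or more.

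The main mir-10b-5p read began 2 bases before the RefSeq mature sequence. The sequences below show the SHR kidney read listed by the study for each arm (as DNA) and the RefSeq entry, with bases 2 to 8 of each in capitals. By its main start the mir-10b-5p read has the same bases 2 to 8 as the mir-10a-5p read. Reads at the RefSeq start made up 0 of 1011 reads in BN-Lx kidney, which allows a share of up to 0.297%, and 0.0859% in the SHR kidney.
mir-10a-5p, kidney read: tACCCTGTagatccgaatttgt
mir-10b-5p, kidney read: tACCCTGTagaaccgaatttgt
miR-10b-5p, RefSeq: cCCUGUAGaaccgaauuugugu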

How the data were processed

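Libraries were made by the authors from gel-selected small RNA with an adapter ligation kit and sequenced on SOLiD; testis and the SHR liver had more PCR cycles. The authors trimmed the linker, mapped reads with SHRiMP to hairpins predicted on RGSC3.4 and listed in miRBase, and kept perfect matches. The deposited values are estimated counts of reads per start and end position on a hairpin; reads fitting several hairpins were divided evenly and no normalization was applied. Ligation bias makes levels of different miRNAs uncertain.

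Counts were summed per hairpin arm, split at the middle of the annotated hairpin (for hairpins without a length, at the gap between reads), and rounded. edgeR 4.0.16 (R 4.3.3) was run with TMM scaling, a filter on low counts by tissue, tissue coefficients and rat as a block over 12 libraries, and two-sided tests at an adjusted p of 0.05 (Benjamini-Hochberg). The study's methods name 1 rat per strain for all tissues, which is the pairing; the SHR over BN-Lx deviations of tissues correlated at −0.23 to 0.10 (median 0.02). Biological coefficient of variation was 0.458 with 5 residual degrees of freedom. The scripts were tested on simulated data. Levels are TMM-scaled reads per 1000000 (RPM); a tissue at 0 was set to 3 reads over its libraries for bounds. Binomial intervals (95%, exact) and floors cover counting error only, as PCR reads carried no molecular identifiers.

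Named arms were those with at least 10 reads in each kidney in 8 lists, the 10 highest and 5 lowest, the 5 most abundant and the 5-fold set, with 10 further lists for other cells. Members and lists were chosen with earlier results of these data known. DESeq2 1.42.0, other scalings, no filter, no block, summed paralogues, left-out libraries and further livers were alternatives.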

Additional observations from a re-analysis of the deposited data

Results flagged for a closer look

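Among tested arms with at least 10 reads in a kidney library, mir-130a-3p and mir-322-3p moved in opposite directions in the strains, kidney lying above all 5 other tissues in one and below all 5 in the other. The difference was not tested, since each strain had 1 kidney. For mir-130a-3p, 60 reads came from BN-Lx kidney and 2109 from SHR kidney, a log2 SHR over BN-Lx ratio of 4.87, and stood at 114 and 3368 RPM against 193 to 2430 in the other libraries. The mir-322-3p arm had 3253 and 284 reads, a log2 ratio of −3.77, and stood at 6180 and 453 against 414 to 5228. Neither was called against the mean of the others, but mir-130a-3p passed without the BN-Lx kidney, at 1.81, and mir-322-3p without the SHR kidney, at 2.56. Groups of 2 libraries are too small for a check of single outlying samples.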

How the results depend on the processing

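Counts of arms higher and lower than the mean of the others were 45 and 12 with the 4 further livers; lower arms were 49 with RLE size factors and 65 with DESeq2. With 1 library left out, higher arms ranged from 50 to 75 and lower arms from 21 to 30. Arms higher than each tissue ranged from 3 to 12 with 1 library left out. Arms lower than each tissue, 0 by the main test, were 3 with RLE, 4 with DESeq2, 1 with paralogues summed, 2 without both testis libraries, 1 without the BN-Lx brain and kidney (an alternative added after seeing the data) and 0 to 2 with 1 library left out. Without the replicate block, 82 arms were higher and 35 lower than the mean, 12 higher than each and 2 lower than each; among named arms only 2 calls changed, mir-30c-2-3p passing at 2.14 and mir-183-3p not passing at 3.83. Arms higher than liver were 106 by total reads and 76 with the further livers, and 18 to 47 with 1 library left out. The 5-fold rule gave 7 arms at 10-fold, 25 in BN-Lx alone and 37 in SHR alone; lower arms were 4 in BN-Lx alone, 3 in SHR alone and 2 without testis. The mir-145-5p difference turned negative with RLE and DESeq2 (−0.26 each), the outlier-corrected mean (−0.20), summed paralogues (−0.10), the further livers (−0.14), without the BN-Lx brain (−0.017), without the BN-Lx kidney (−0.38) and without both (−0.37). With 1 library left out, mir-145-5p ranged from −0.38 to 0.38, mir-31-3p from −2.18 to 0.018, mir-200b-5p from −1.16 to 9.35, mir-130a-3p from −3.40 to 1.81 and mir-322-3p from −1.47 to 2.56, the sign turning without the SHR kidney for mir-31-3p, mir-200b-5p and mir-130a-3p and without the BN-Lx kidney for mir-322-3p (−1.46 without the BN-Lx brain as well). The cause of these changes was not tested. Over 69 named arms and 22 settings, 1336 values kept direction and side of the threshold, 144 lost the call and 14 gained it. A lone library left in a tissue was assumed to vary like the other tissues. The testis depth limits bounds there.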
